A study of Mus musculus with 33 samples.

Results

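The subject is the set of genomic regions that 2 HSF1 antibodies occupied in wild type mouse embryonic fibroblasts (MEFs) before any heat shock. Occupancy was measured by ChIP-seq, in which DNA bound to an immunoprecipitated protein is sequenced, and was deposited as peak lists: positions enriched in sequenced tags over a background. The antibodies are named CS (Cell Signaling #4356) and MM (from the Morimoto lab). All 180 CS peaks and all 449 MM peaks before heat shock were pooled, and peaks that shared at least 1 bp were merged. This gave 508 regions, against 45686 peaks in all 15 lists. Of these, 121 held a peak of both antibodies, 59 a CS peak only and 328 an MM peak only. The regions were chosen by the tag enrichment of these 2 libraries, so their tags, folds and scores before heat shock are given as a description and were not tested.

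The series holds 33 samples. The 15 peak lists came from wild type and HSF1-/- MEFs of the 129Sv.BALB/c strain background, probed with CS and MM without heat shock, at 12 min and at 60 min of heat shock, and from wild type MEFs probed with an antibody against SRF (D71A9) at the same times. The remaining samples, nascent RNA (PRO-seq, with HSF1&2-/- cells among them), IgG and input, were not analysed here. Each combination of genotype, time and antibody had 1 list. A difference between lists therefore has no replicate check, and the shares that the comparisons rest on are given with exact (Clopper-Pearson) 95% intervals. For a count of 0 the share that 3 counts would make is given as the limit. Both cover counting error only. Peak lists hold no expression values, so the fibroblast label could not be checked against marker genes.

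HSF1 is the main activator of genes that respond to heat shock. In unstressed cells most of it is held inactive by chaperones, and on heat stress it forms trimers that bind heat shock elements. These elements are runs of alternating GAA and TTC units separated by any pair of bases, and they often lie in the promoters of chaperone genes. Chaperones such as Hsp70, Hsp90 and the TRiC/CCT ring help proteins fold and are needed in unstressed cells too.

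The sequences under the regions are shown first, because in regions of both antibodies most of the heat shock elements found lay close to the summits. RefSeq promoter windows (GRCm38.p6, the same primary assembly as mm10) hold 250 bases before and 50 bases after a transcript start. A 2-unit element was searched as GAANNTTC or TTCNNGAA on either strand, N being any base, and a 3-unit element as a further unit at the same spacing, so each 3-unit match contains 2-unit matches. Of 32817 windows, 15.1% held at least 2 units and 0.603% at least 3. Every element of at least 3 units in a window under a region is printed, with a few 2-unit elements as examples, 5′ to 3′ and with the GAA and TTC units in capitals. In regions found with both antibodies the last of the following has 2 units and the others more.
Hspd1 and Hspe1, chr1:55088054-55088081, minus strand: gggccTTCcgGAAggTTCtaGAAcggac
Chordc1, chr9:18292260-18292288, plus strand: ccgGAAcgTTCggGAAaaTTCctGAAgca
Hsph1, chr5:149636287-149636308, minus strand: gctgcagaTTCtgGAAagTTCt
Hnrnpa2b1, chr6:51469863-51469891, minus strand: agtgggggGAAggTTCtaGAAaagcggcg
Gm6297 beside Dnaja1, chr4:40722526-40722554, minus strand: accgagcgTTCtgGAAagTTCcgcccggc
4930447K03Rik, chr13:34113347-34113375, minus strand: tgtgtggaTTCtgGAActTTCagatacca
Ccnd3, chr17:47593274-47593302, plus strand: gggcacccTTCcaGAAagTTCtctctacc
Pradc1 beside Cct7, chr6:85452010-85452037, minus strand: gaaatgcccaGAAgcTTCtggcgagacg

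The Chordc1 element has 5 units and its centre lies 7 bp after the transcript start and 1 bp from the summit. The element shared by Hspd1 and Hspe1 has 4 units, with its centre 136 bp before the Hspd1 start and 19 bp from the summit. The Hsph1 and Hnrnpa2b1 elements have 3 units and lie 2 bp and 14 bp from their summits. The 3-unit element beside Dnaja1 is 177 bp from the summit, while a 2-unit element of the same window, gagcctcgtaGAAttTTCtagaggcttt, is 15 bp from it. The next group shows elements under MM-only regions that were found again after heat shock.
Kctd18, chr1:57970220-57970247, minus strand: tccggGAAaaTTCagGAAcgTTCttggg
Mettl23, chr11:116843321-116843349, plus strand: aagtcgccTTCcaGAAgaTTCactcctca
Bst2, chr8:71537618-71537646, minus strand: gagttgaaTTCcaGAAgtTTCtcttgctt
Zfand2a, chr5:139484670-139484697, minus strand: tgcctgactgTTCtaGAAaataggcggg

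The Kctd18 element has 4 units and lies 11 bp from its summit, and the Zfand2a element has 2 units and lies 12 bp from its summit. In the windows of MM-only regions absent after heat shock, matches had 2 units at most. Tmsb10 and Ccdc103 held the 2 that lay within 100 bp of a summit.
Tmsb10, chr6:72958214-72958241, minus strand: cggcggtttgGAAtcTTCtggggctagc
Ccdc103, chr11:102881037-102881064, plus strand: aaggaacagcTTCgaGAAattctggccc

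Among the 26 regions of both antibodies that overlapped a promoter window, 12 (46.2%, 26.6 to 66.6%) had a window with at least 2 units and 7 (26.9%, 11.6 to 47.8%) one with at least 3. Each of those 12 regions had an element within 100 bp of its summit. Of the 15 elements in these windows, 14 lay within 100 bp of the summit, at a median of 18 bp. Elements in the windows of MM-only regions were less often this close. Where the region was found later it was 6 of 10, at a median of 24.5 bp. Where it was absent later it was 2 of 6, at a median of 141.5 bp. A window can reach past a short region, and some of these elements, such as those at Wbp2 and Rab35, lay outside the region. These distances therefore depend in part on the windows. Among the 23 MM-only regions with a window that were found again after heat shock, 9 (39.1%, 19.7 to 61.5%) had at least 2 units and 3 (13.0%, 2.78 to 33.6%) at least 3. Among the 52 absent after heat shock, 5 (9.62%, 3.20 to 21.0%) had at least 2 units. None of the 52 had 3 units, which allows a share of up to 5.77%. Counted by window, 16 of 40 under both antibodies (40%, 24.9 to 56.7%) and 7 of 60 under MM-only regions absent later (11.7%, 4.82 to 22.6%) held at least 2 units. The first interval lay above the 15.1% of all windows and the second held it. Windows of 1 region can overlap and hold the same element, as at Hsph1 and Hnrnpa2b1. They are not separate trials, so the intervals by window are too narrow. The windows were GC-rich in every group, with a mean of 63.6% for both antibodies, 64.5% for MM-only regions found later and 62.7% for those absent later, against 53.8% for all windows. No CS-only region overlapped a window. Regions outside the windows were not searched, since only promoter sequence was used here.

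A whole upstream stretch is shown for Fkbp4, an Hsp90 co-chaperone whose region held peaks of both antibodies, and for Kctd18, whose MM-only region was found again in all 4 later lists. Each gives the 250 bases before the start on the minus strand, with the units in capitals.
Fkbp4, chr6:128438657-128438906: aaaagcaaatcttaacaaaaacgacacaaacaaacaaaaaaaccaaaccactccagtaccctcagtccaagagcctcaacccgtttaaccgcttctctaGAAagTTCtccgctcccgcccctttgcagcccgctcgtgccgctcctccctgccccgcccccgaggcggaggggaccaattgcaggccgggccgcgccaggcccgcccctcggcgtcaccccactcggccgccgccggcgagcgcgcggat
Kctd18, chr1:57970085-57970334: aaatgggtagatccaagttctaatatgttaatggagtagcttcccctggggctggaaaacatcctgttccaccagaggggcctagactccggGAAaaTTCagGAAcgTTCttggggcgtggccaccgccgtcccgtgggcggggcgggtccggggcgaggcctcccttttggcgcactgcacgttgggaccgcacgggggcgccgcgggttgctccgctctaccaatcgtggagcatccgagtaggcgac

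The largest tag counts before heat shock were at chaperone genes and were large with both antibodies. The region between St13, an Hsp70 co-chaperone, and Xpnpep3 (chr15:81399483-81400292) held 439 CS tags and 305 MM tags, the most in each list. Hspa8, the constitutive Hsp70 (chr9:40800698-40801597), held 338 and 255 tags. The shared promoter of Hspd1 and Hspe1, the mitochondrial chaperonin and its partner (chr1:55087636-55088401), held 319 and 266. These 3 regions stood apart from the rest in both antibodies, as the plot of CS against MM tags shows.

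Hsph1, an Hsp110 that exchanges nucleotide on Hsp70 (chr5:149635995-149636843), held 214 CS and 143 MM tags. Dnaja1, a J-domain partner of Hsp70 that shares its region with the DNA repair gene Aptx (chr4:40721958-40722896), held 199 and 135. Serpinh1, the collagen chaperone Hsp47 of the endoplasmic reticulum (chr7:99352849-99353484), held 152 and 89. The 2 cytosolic Hsp90 genes followed a different layout. Hsp90aa1 (chr12:110696124-110696599) had 1 region at its end, with 87 CS and 80 MM tags. Hsp90ab1 had 3 separate regions of both antibodies between chr17:45572370 and 45574184, with 85, 73 and 194 CS tags and 70, 42 and 140 MM tags. In each later list a single peak covered all 3, which is why their later tag counts are the same.

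Fold enrichment, as the authors deposited it for peaks called against the IgG control, gave another order. By the mean rank over both antibodies the first region lay inside Aldh3b1, an aldehyde dehydrogenase gene (chr19:3926143-3926711), and had folds of 74.57 (CS) and 50.97 (MM) from 178 and 101 tags. A region whose nearest protein-coding gene is Knstrn (chr2:118841743-118842196) came next, with 70.62 and 53.1. Regions near Rbm47 and inside Rilpl1 were among those that followed. Of the 15 regions that ranked best by fold over both antibodies, 5 were at a protein-coding gene end: those of St13, Hspa8, Hspd1 with Hspe1, Hsph1 and Serpinh1. The others were inside genes, outside genes or at the end of a gene that is not protein-coding. The 5 best-ranked regions outside genes were near Arsi on chromosome 18 (186 CS and 87 MM tags), at chr5:64666967-64667379 (47 and 34), chr15:50172220-50172756 (75 and 16), near Ret (chr6:118205199-118205618, 51 and 31) and near Tarbp1 (chr8:126524535-126524995, 104 and 62).

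**Figure D1:**
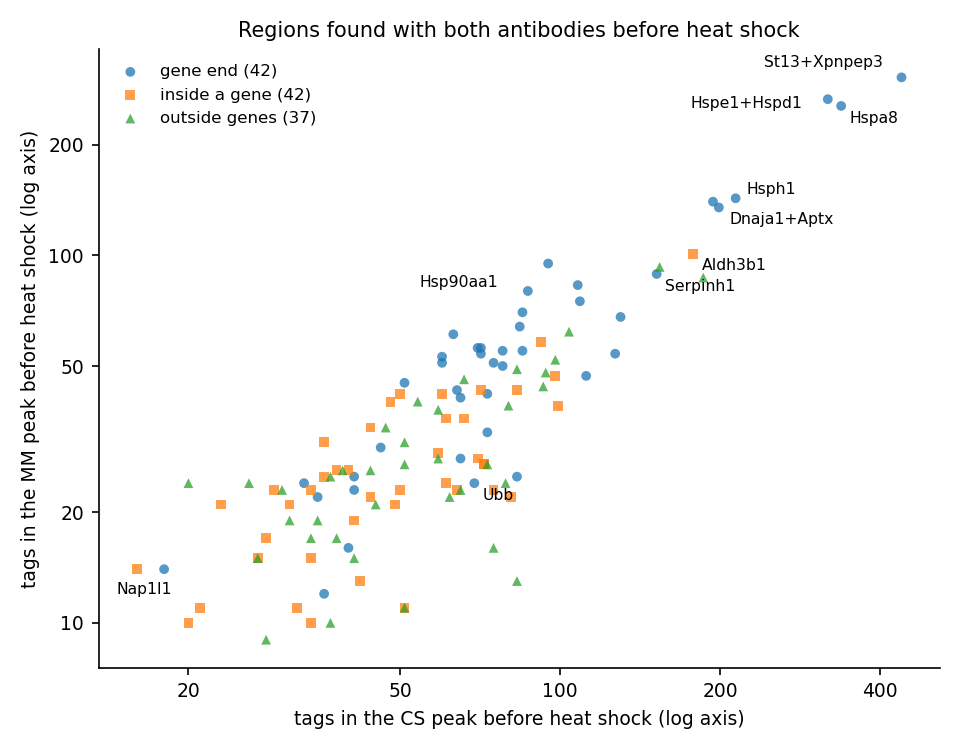
Tags in the CS peak (x axis) and in the MM peak (y axis) of the 121 regions of both antibodies before heat shock, both on log axes, 1 point per region, with the marker showing whether the summit lay at a gene end, inside a gene or outside genes. St13 with Xpnpep3, Hspa8 and Hspd1 with Hspe1 lie apart at the upper right, and the Nap1l1 region, with 16 CS and 14 MM tags, is at the lower left.

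The 3 classes differed in size before heat shock, as values that chose them. Regions of both antibodies had a median length of 448 bp and held 16 to 439 CS tags (median 61) and 9 to 305 MM tags (median 28). CS-only regions had a median length of 330 bp and held 16 to 77 CS tags (median 33). MM-only regions were short and thin, with a median length of 155 bp and 6 to 131 tags (median 11). Where both antibodies had a peak, their summits were close: the median distance was 31 bp, and 111 of 121 (91.7%) lay within 100 bp. The CS and MM peaks of a time share 1 IgG control library, which ties the 2 lists together.

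The score, minus 10 times the log10 of the authors' p-value, had to reach 40. The lowest scores inside that limit were 40.26 (CS) and 40.09 (MM). At the border between the classes, the smallest CS and MM overlap that made a region of both antibodies was 103 bp, inside Prkab2 (chr3:97659832-97660237), and the closest CS-only region to an MM peak was 3518 bp away from one, by Col6a3 (chr1:90834659-90835136). The authors' false discovery rate was 100% for 96 of 180 CS peaks and 351 of 449 MM peaks. It was 5% or less for 1 peak, the MM peak between St13 and Xpnpep3. The fragment length that MACS estimated was 45 bp for CS and 40 bp for MM in these 2 libraries, whose tags were 36 bp long, and 107 to 161 bp in the 4 later ones. What part this had in the short peaks was not tested.

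Almost every region that carried a CS peak before heat shock was found again after it. Of the 121 regions of both antibodies, 119 (98.3%, 94.2 to 99.8%) overlapped a peak in the CS list and 119 in the MM list at 12 min. At 60 min 120 (99.2%, 95.5 to 99.98%) did so in the CS list and 119 in the MM list. The same 119 regions were in all 4 later lists. Of the 59 CS-only regions, 58 (98.3%, 90.9 to 99.96%) were in all 4 lists, those of the MM antibody included. Of the 328 MM-only regions, 62 (18.9%, 14.8 to 23.6%) were in the 12 min CS list, 61 (18.6%, 14.5 to 23.2%) in the 12 min MM list, 62 (18.9%, 14.8 to 23.6%) in the 60 min CS list and 68 (20.7%, 16.5 to 25.5%) in the 60 min MM list. The intervals of the MM-only class did not overlap those of the other classes.

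For comparison, 1.33% and 1.47% of all promoter windows overlapped a CS and an MM peak at 12 min, and 2.33% and 3.12% at 60 min. Of the 101 regions that overlapped a promoter window, all 26 of both antibodies were in all 4 later lists, against 17 of 75 MM-only regions (22.7%, 13.8 to 33.8%).

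**Figure D2:**
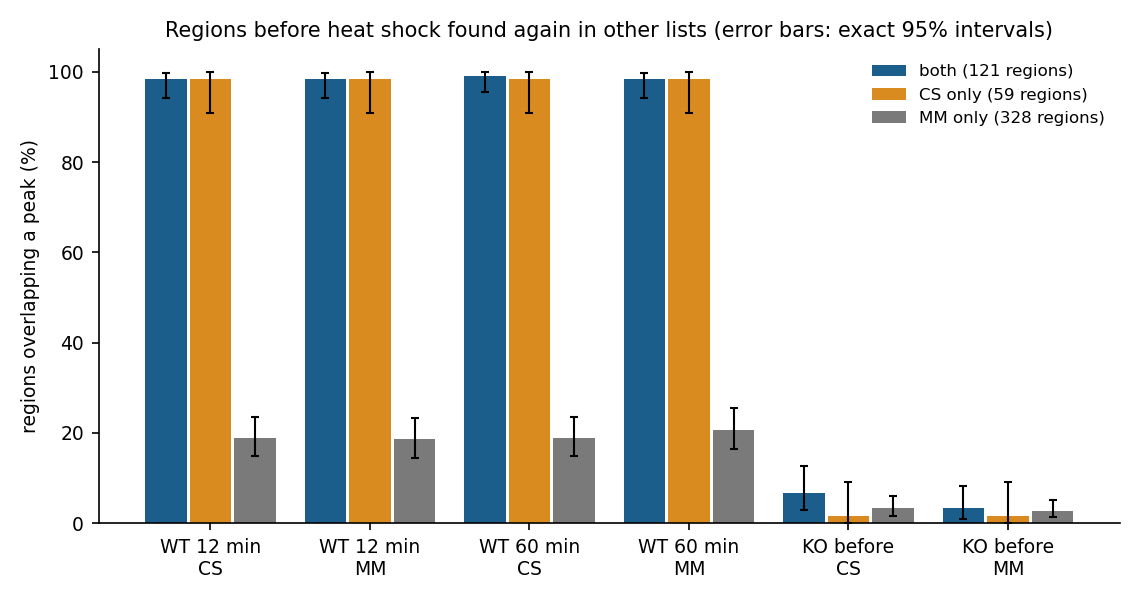
Percent of the regions of each class before heat shock (y axis) that overlapped a peak in each of 6 other lists (x axis), with exact 95% intervals as error bars. For wild type after heat shock (WT), both antibodies and CS only reach at least 98.3% and MM only 18.6 to 20.7%; in HSF1-/- cells before heat shock (KO) no class exceeds 6.61%.

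Most summits stayed in place. From the region before heat shock to the later peak, the median summit distance was 19 to 24 bp for regions of both antibodies, 35 to 36 bp for CS-only regions and 38 to 41 bp for the MM-only regions that were found again. In the 4 lists, 92.4% to 95% of the regions of both antibodies had a later summit within 100 bp.

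Only 3 regions with a CS peak were missing from at least 1 later list. A region inside Nap1l1, a nucleosome assembly gene (chr10:111496384-111496584), had 16 CS and 14 MM tags before heat shock, no peak in any later list and peaks in 3 HSF1-/- lists. A region inside the uncharacterised gene Gm39793 (chr2:33933902-33934060), with 20 CS and 10 MM tags, was found only in the 60 min CS list and had peaks in 3 HSF1-/- lists. That 60 min CS peak had its summit 704 bp away, 69 tags and a fold above that of only 3.23% of its list. The CS-only region inside Dock2 (chr11:34681665-34682170), with 56 CS tags and a fold of 12.65, had no later peak and a peak in all 6 HSF1-/- lists. Each of the 3 thus also had a peak in cells without HSF1.

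The regions lay at the strong end of the later lists. In the 12 min lists, the median region of both antibodies had a fold above that of 94.1% (CS) and 94.6% (MM) of peaks, and at 60 min above that of 91.8% and 93.3%. CS-only regions had medians of 87.1%, 86.1%, 92.5% and 87.1% in the same order of lists, and MM-only regions found again 80.1%, 81.9%, 79.5% and 81.5%. Seen from the later list, 71 of the 100 CS peaks with the highest fold at 12 min lay over a region found before heat shock. By deciles of the 12 min CS list, 60.7% (53.1 to 67.9%) of peaks in the top decile and 0.559% in the bottom decile did so. In the 60 min CS list the top decile reached 24.5% in a list of 4773 peaks, against 1781 at 12 min.

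**Figure D3:**
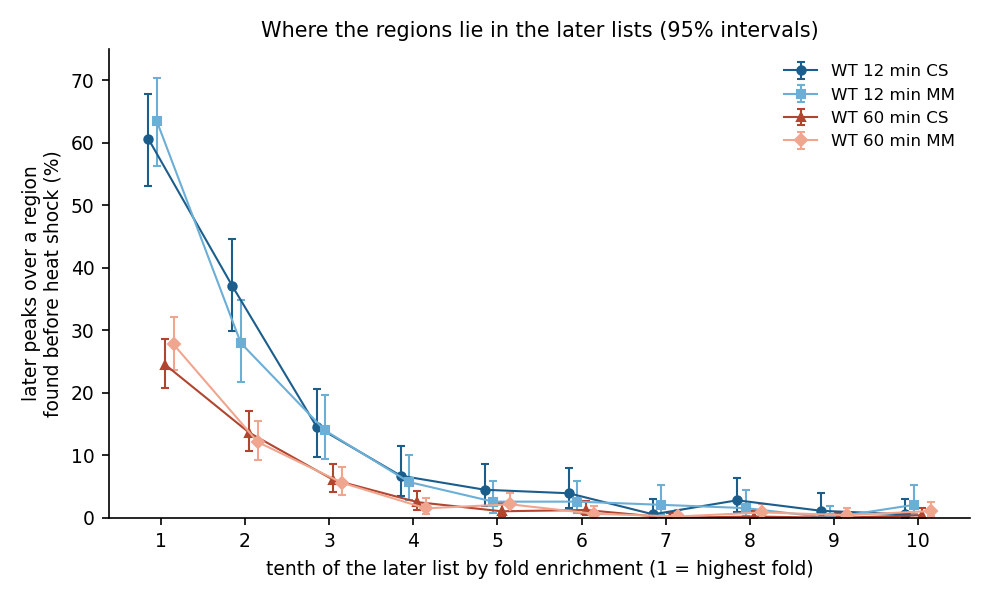
Percent of later peaks that lay over a region found before heat shock (y axis), by decile of each later list ordered by fold (x axis, 1 the highest), with exact 95% intervals. The top decile holds 60.7% (CS) and 63.5% (MM) at 12 min and 24.5% and 27.8% at 60 min, and each of the 4 lists falls to under 8% from the 4th decile on.

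The classes also differed in where they lay. A summit within 1 kb of either end of an annotated gene is called a gene end here. Of the regions of both antibodies, 42 (34.7%, 26.3 to 43.9%) were at a gene end, 42 inside a gene and 37 outside genes. CS-only regions were at a gene end in 6 of 59 cases (10.2%, 3.82 to 20.8%), inside a gene in 29 and outside genes in 24. For protein-coding genes alone, the share at an end was 28.1% (20.3 to 37.0%) for both antibodies and 3.39% (0.413 to 11.7%) for CS only. Bases within 1 kb of a protein-coding gene end made up 2.98% of the genome up to the last gene of each chromosome. The 2 CS-only regions at such ends were those of Etnk2 (chr1:133380738-133380980, 21 tags), an ethanolamine kinase, and Vwa1 (chr4:155775545-155775913, 41 tags), a matrix protein.

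The CS-only regions with the highest folds were inside genes, outside genes or at a gene that is not protein-coding. The first lay inside Kcnk5, a potassium channel gene (chr14:20155064-20155393), with 40 tags and a fold of 53.97. The next were near Arid5b (54 tags, fold 42.88) and Nrsn1 (32 tags, 41.26), inside Bnipl (29 tags, 39.68), near Ctso (24 tags, 37.14), inside Adam12 (28 tags, 36.36), near Poc1b (33 tags, 33.33) and inside Glis3 (35 tags, 33.33). All 8 were found in the 4 later lists. None of the 110 chaperone and protein-clearance genes described next had a CS-only region at an end.

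Of summits within 1 kb of a transcript start, most lay within 300 bp of it. It was 25 of 29 for both antibodies, 24 of 30 for MM-only regions found later and 57 of 70 for those absent later. Median positions were 23 bp before, 18 bp before and 16 bp after the start, in the same order. The ranges were -721 to 575 bp, -326 to 795 bp and -843 to 754 bp. The 1 kb limit is the same on both sides, so a median near the start does not by itself show closeness. Among wild type regions of both antibodies that overlapped no region found before heat shock, 25.1% were at a gene end at 12 min and 18.6% at 60 min.

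**Figure D4:**
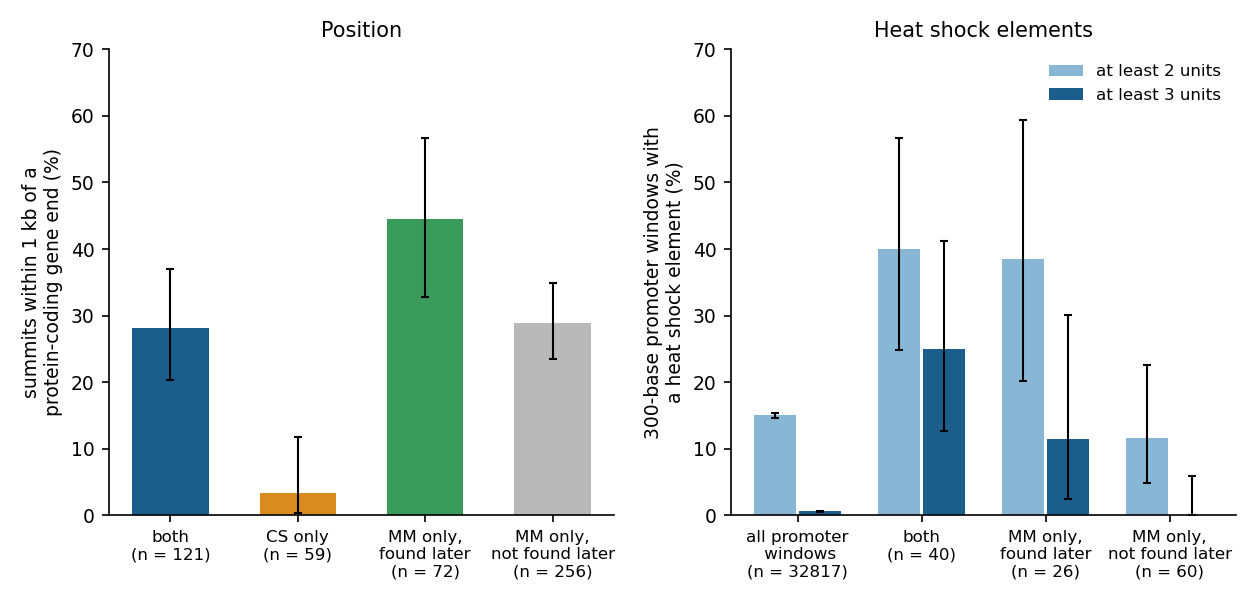
Left, percent of summits within 1 kb of a protein-coding gene end (y axis) by class, with exact 95% intervals: 28.1% for both antibodies, 3.39% for CS only, 44.4% and 28.9% for MM only found and not found later. Right, percent of 300-base promoter windows with a heat shock element of at least 2 or 3 units, for all 32817 windows and for those under each class; CS-only regions overlapped none.

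In total, 42 protein-coding genes, 0.194% of 21631, had a region of both antibodies at an end, and 164 (0.758%) had a region of any class. From 11 lists with 110 chaperone, cochaperone, protein-clearance and heat shock factor genes, 17 had a region of both antibodies (15.5%) and 28 a region of any class (25.5%). Neighbouring genes can share a region, and the lists were chosen with earlier results known.

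By role, both Hsp90 genes (Hsp90aa1 and Hsp90ab1) had a region of both antibodies. So did 4 of 15 Hsp90 cochaperone genes: Ahsa1, which stimulates the Hsp90 ATPase, Chordc1, Fkbp4 and Stip1, which links Hsp70 to Hsp90. Of 12 Hsp70 and Hsp110 genes it was Hspa8 and Hsph1, of 9 Hsp70 cochaperones St13, and of 17 J-domain proteins Dnaja1. The TRiC/CCT ring, which folds actin and tubulin, had 3 of its 8 subunit genes (Cct3, Cct4 and Cct7). Mitochondrial chaperones had Hspd1 and Hspe1 of 10, endoplasmic reticulum folding Serpinh1 of 13, and protein clearance the polyubiquitin gene Ubb of 11. None of the 8 small heat shock protein genes and none of the 5 heat shock factor genes had a region of any class.

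CS tags of these genes went from 36 at Ahsa1 to 439 at St13, in a class of 16 to 439 tags (median 61). Only Ahsa1 and Cct7 lay below that median. Stip1 held 130 CS and 68 MM tags, Fkbp4 112 and 47, and Chordc1 84 and 64. Ahsa1, with Vipas39 on its other side, held 36 and 12. The chaperonin genes lay close together, with 63 and 61 tags for Cct3, 64 and 43 for Cct4 and 60 and 53 for Cct7. Ubb held 69 and 24. In every one of these regions a peak was present in all 4 later lists.

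The other genes with a region of both antibodies at an end were Abcc5, Acot7, Adgra3, Aptx, Azi2, Cbx3, Ccdc117, Ddx23, Dynll1, Ears2, Hnrnpa2b1, Ints2, Mat2a, Mrpl38, Pradc1, Rangap1, Rsrp1, Slc35e2, Trim65, Tsacc, Ubfd1, Uspl1, Vipas39, Xpnpep3 and Zcwpw2. Among them Abcc5, an export pump, held 109 CS and 75 MM tags. Uspl1, a SUMO isopeptidase, held 127 and 54, and Rsrp1 85 and 55. Mat2a, which makes S-adenosylmethionine, held 65 and 41, and Ints2, an Integrator subunit, had the fewest CS tags of these with 18 and 14 in MM. Several of them, such as Aptx, Tsacc, Xpnpep3 and Pradc1, share their region with a chaperone gene.

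MM-only regions at list genes divided by what came later. Those of 9 genes were found again in all 4 later lists: Cct6a, Cct8 and Tcp1, further TRiC/CCT subunits, Dnajb1, the main J-domain partner of inducible Hsp70, Hspa4l, an Hsp110 relative, Bag2, the Hsp90 cochaperones Ppid and Ptges3, and Zfand2a, a zinc finger protein of the proteasome pathway. They held 15 to 46 MM tags before heat shock. Dnajb1 had 2 such regions, with 42 and 37 tags (chr8:83608138-83608580 and chr8:83608594-83608891), covered later by 1 peak with 651 CS and 427 MM tags at 12 min. The regions of the other 2 genes, Clpp, a mitochondrial protease (16 tags), and Dnajc3 (10 tags), were in no later list.

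With these 9, 6 of the 8 TRiC/CCT genes had a region of some class before heat shock, and Cct2 and Cct5 had none. At 12 min, 49 of the 110 list genes had a region of both antibodies at an end, against 1.53% of all protein-coding genes, and at 60 min 48, against 2.58%. Of the 28 list genes with a region before, 26 were among them at each time. For all protein-coding genes with a region before, it was 73 of 164 at 12 min and 71 of 164 at 60 min. The 23 list genes that had a region at 12 min and none before included the inducible Hsp70 genes Hspa1a and Hspa1b, Hspa1l beside them, the small heat shock protein genes Hspb1, Hspb2 and Hspb8, Bag3, Dnajb4, Hspa4, Hspa9, Cct2 and Cct5. Hspa1a and Hspa1b are near-identical copies, and the sources used here do not state how tags that match both were placed, so their values are uncertain.

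Peaks in HSF1-/- cells were called where HSF1 was lacking. Whether such a peak came from the antibodies or from background in lists called with no control was not tested. Before heat shock a peak of either antibody in HSF1-/- cells lay over 12 of 121 regions of both antibodies (9.92%, 5.23 to 16.7%), 1 of 59 CS-only regions (1.69%, 0.0429 to 9.09%) and 17 of 328 MM-only regions (5.18%, 3.05 to 8.17%). The 3 intervals overlapped. Over all 6 knockout lists the counts were 21 (17.4%, 11.1 to 25.3%), 1 and 37 (11.3%, 8.07 to 15.2%). Of all promoter windows, 1.37% overlapped a knockout peak before heat shock and 3.61% one of any time. Lengths were unequal, and a longer stretch overlaps more peaks by position alone. The medians were 448 bp for both antibodies, 330 bp for CS only and 155 bp for MM only, against 300 bases for a window. Among regions that overlapped a promoter window, the share with a knockout peak of any time was 23.1% (8.97 to 43.6%) for both antibodies and 24.0% (14.9 to 35.3%) for MM only. The knockout lists were called with no control library and hold 3170 to 7813 peaks, so their peak numbers are not on the scale of the wild type lists.

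The knockout peaks under regions of both antibodies were small. Before heat shock there were 13 in 12 regions, with 5 to 12 tags (median 6), and none of the 121 regions held a knockout peak with a score of 100 or more in any list. They lay over Ddx23 (12 tags), the Gm39793 region (10 tags), a region near Ptpdc1 (chr13:48572135-48572566, 8 tags), Uspl1, Cct3 and Lrrk1 (7 tags each), Rangap1 and a region near Irf2bp2 (6 tags each), and Hspd1 with Hspe1, Cct7, Prkab2 and chr6:31176348-31176804 (5 tags each). Hspd1 with Hspe1 thus had 5 knockout CS tags in a list where wild type cells had 319. Those libraries held 9.95 and 25.2 M tags (M, mega), and the 2 lists differ in their control.

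Large knockout peaks lay under 3 MM-only regions and the Dock2 region. A region inside D130079A08Rik (chr14:104336962-104337044) had 8 MM tags in wild type cells before heat shock and 39 CS and 51 MM tags in HSF1-/- cells. One near Olfr854 (chr9:19575454-19575512) had 6 MM tags in wild type and 36 CS and 48 MM tags in the knockout. These 2 regions and another on chromosome 18 had a peak in all 6 knockout lists and in none of the later wild type lists. Leaving out every region with any knockout peak kept 100 regions of both antibodies, 58 CS-only and 291 MM-only regions. The share found again was then 100% for the first 2 classes at both times and 18.9% at 12 min and 21.0% at 60 min for MM only. The 100% was fixed by the removal, since every region with a CS peak that was missing from a later list had a knockout peak.

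No region of any class overlapped a peak of SRF, a factor of actin and immediate early genes, at any of 3 times. A count of 0 of 508 allows a share of up to 0.591%. The SRF lists hold 18 to 68 peaks. They cover 5.54 to 16.5 kb each and come from libraries of 0.751 to 1.55 M tags, so few regions of any kind could overlap them. The count of 0 therefore does not show that HSF1 and SRF sites are separate.

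The MM-only regions were 72 that overlapped a peak in at least 1 of the 4 later lists, 59 of them in all 4, and 256 that overlapped none. Tags and length before heat shock went with this division, and fold went the other way. Regions found later had a median of 19 tags, 251 bp and a fold of 16.67. Those not found later had a median of 10 tags, 129 bp and a fold of 21.7. By tag count, 2 of 129 regions with 6 to 9 tags were found later (1.55%, 0.188 to 5.49%), 17 of 81 with 10 to 14 (21.0%, 12.7 to 31.5%), 29 of 82 with 15 to 24 (35.4%, 25.1 to 46.7%) and 24 of 36 with 25 to 131 (66.7%, 49.03 to 81.4%). By fold, the share went from 37.3% (25.8 to 49.99%) of 67 regions under a fold of 15 to 7.14% (2.92 to 14.2%) of 98 with a fold of 25 or more. The bin limits were chosen after the values were seen. None of the 60 regions shorter than 100 bp was found later.

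**Figure D5:**
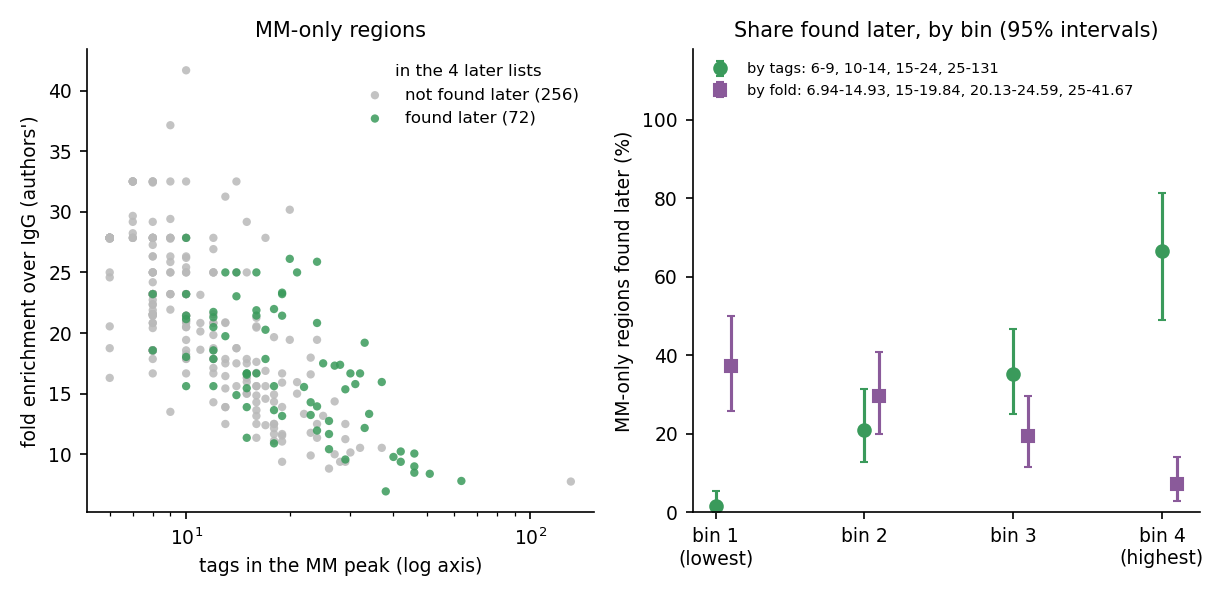
Left, tags (x axis, log) and fold over IgG (y axis) of the 328 MM-only regions before heat shock, 1 point per region, coloured by whether a later wild type list held a peak there. Right, percent found later (y axis) in 4 bins of tags or of fold (x axis, limits in the legend), with exact 95% intervals: the share goes from 1.55% to 66.7% with tags and from 37.3% to 7.14% with fold. Tags and fold are tied, since all peaks passed the same score limit.

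A score of at least 60 was reached by 25 of the 328, and 15 of these (60%, 38.7 to 78.9%) overlapped a later peak, at 12 min as at 60 min. When the classes were assigned again from peaks of that score, 45 regions were MM only, of which 20 had been regions of both antibodies and 77.8% overlapped a later peak.

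The MM-only regions with the highest fold that were found later lay inside Wdr25 (chr12:108904019-108904185, 10 tags, fold 27.85), inside Lrmda (20 tags, 26.12) and near Neurl3 (chr1:36280932-36281161, 24 tags, 25.88), which also had the highest score of the class, 93.19. The Kctd18 region (chr1:57970085-57970277), whose 4-unit element is printed above, had 14 tags and a fold of 25. After heat shock it held 222 and 146 tags at 12 min and 380 and 255 at 60 min (CS, then MM). Its fold was then above that of 93.7% of the peaks in the 12 min CS list.

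Regions absent later had the highest folds of the class from few tags. The first, near Slc22a12 (chr19:6581922-6581995), had 10 tags and a fold of 41.67, with peaks in 2 knockout lists. Then came regions near Vmn2r58 (9 tags, 37.14), inside Tram2 (7 tags, 32.5), at Rbbp5, a subunit of histone methyltransferase complexes (10 tags, 32.5), and inside Themis (8 tags, 32.5). Lrp10 had the highest score among them (20 tags, score 77.27). The region with the most tags of the class, 131, was inside Gm36327 on chromosome 6 and was found in no later list.

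Regions absent later were at protein-coding gene ends in 74 of 256 cases (28.9%, 23.4 to 34.9%), a share close to the 28.1% of both antibodies, and those found later in 32 of 72 (44.4%, 32.7 to 56.6%). The intervals of these 2 groups of MM-only regions overlapped. Besides the list genes, ends with a region found later included those of Bbs12, Cetn4, Nudc, Mrpl18, Psph, Ubqln1, Usp8, Jmjd6, Mettl23, Nfat5, P4ha1, Phlda1, Rragc, Ube2g2 and Bst2.

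The regions were spread over the genome. Chromosomes 1 to 19 and X held 7 to 41 regions each. Regions of both antibodies were most numerous on chromosome 5, with 15 of its 39 regions, and chromosome 11, with 11 of 38. These counts were not set against chromosome length or gene number. Besides the 3 regions at Hsp90ab1 and the 2 at Dnajb1, only 2 groups had neighbours within 5 kb: a CS-only region and a region of both antibodies at Col6a3, a collagen VI gene, and 2 MM-only regions at Actr8 that were absent later.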

How the data were processed

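Peak lists of 15 ChIP-seq samples were used. Per the file headers, the authors called HSF1 peaks with MACS 1.4.2 and a p-value limit of 1.00e-04, wild type against IgG from files that name a merge of 2 replicates, and knockout with no control. SRF peaks were called with MACS 2.0.9, per the file headers. The build is mm10, per the labels. No aligner is named in the sources used here. As deposited by the authors, each HSF1 peak has a tag count, a fold enrichment (a ratio), a score (its p-value as minus 10 log10 units) and, in wild type lists, an FDR in percent. As deposited by the authors, SRF peaks have a pileup signal, a fold and the −log10 of the p-value and q-value, which were not used beyond positions. Folds were ranked only within their list. Where tags, folds or scores of different lists stand side by side, they are a description. Depth, and in part the control, differ between the lists.

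Libraries held 25.2 (CS), 15.9 (MM) and 10.1 (IgG) M tags (M, mega) before heat shock, 14.0 to 26.3 M after it and 5.18 to 15.6 M in the knockout, per the file headers. Overlap meant at least 1 shared bp. The summit of a region was its peak summit, or the midpoint of the CS and MM summits. Genes came from the GRCm38.p6 table (49554 genes, 21631 protein-coding), which has no strand. Promoter windows of RefSeq (32817, none on chromosome 18) gave starts and sequence. Shares have exact 95% intervals, and limits for a count of 0 use 3 counts. Work was done in Python 3.11.15 with numpy 2.4.6 and scipy 1.17.1. The interval and element code was tested on simulated data.

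The members, gene lists and settings were chosen with earlier results of these data known. Genes were named by rule: every protein-coding gene with a region of both antibodies at an end, the regions with the best mean fold rank of that class, the highest folds of the other classes, the list genes with a region, the regions of both antibodies missing later and those with a knockout peak. Regions named for a tag count, a score, a missing later list or 6 knockout lists, and other genes beside MM-only regions, were chosen after their values were seen. Alternatives covered the score, FDR, overlap and distance limits and the removal of regions with knockout peaks. Some genes are not reported here.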

Additional observations from a re-analysis of the deposited data

How the results depend on the processing

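Of 65 alternative values, 34 stayed close to the value reported (within its 95% interval, or 1.5 times for a count) and 31 moved. The class sizes depended on the score limit. With classes assigned again from peaks of a score of at least 60, the regions of both antibodies numbered 64 and MM only 45, and with at least 100 the counts were 31 for both, 17 for CS only and 15 for MM only. With an FDR of 5% or less 0, 0 and 1 region were left, so no share was computed there. A region of both antibodies changes class when 1 of its 2 peaks is lost: 20 of the 45 and all 15 of the MM-only regions at scores of 60 and 100 had been regions of both antibodies, as had the region left by the FDR limit.

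The share found again was 100% for both antibodies and for CS only, at 12 and at 60 min, with a score of at least 60 before heat shock and, in an alternative chosen after seeing the data, without regions that had a knockout peak. For MM only it was 77.8% at both times with a score of at least 60 and classes assigned again, and 60% at both times for the 25 MM-only regions of the full lists with that score, an alternative also chosen after seeing the data. Summits within 200 bp, 50% coverage and later peaks with an FDR of 5% or less left these shares within their intervals. The 100% without knockout peaks was fixed by that choice, since it removed every region with a CS peak that was missing from a later list.

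The share with a knockout peak before heat shock was 0 for both antibodies, 0 for CS only and 0.915% for MM only when knockout peaks needed a score of at least 100, and 17.4% for both antibodies and 11.3% for MM only with knockout peaks of any time. The share at a gene end within 5 kb was 53.7% for both antibodies, 27.1% for CS only and 53.0% for MM only. Within 500 bp it was 1.69% for CS only and 30.5% for MM only, and for protein-coding genes 3.39% for CS only. The cause of the shifts was not tested beyond the limits themselves. No paired analysis was possible because each genotype, time and antibody has 1 list. Depth limits the thin regions: 6 tags were enough for an MM peak, and a region missing from a list may hold tags under its limit.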
